A study of Mus musculus with 20 samples.

Results

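Promoter methylation of 10 genes of the piRNA pathway was described in sperm DNA, taken by gene symbol from a table of 22480 promoters: Piwil1, Piwil2, Piwil4, Mov10l1, Tdrd1, Tdrd9, Mael, Ddx4, Asz1 and Pld6. All 10 symbols were found, each with 1 probe of 2200 bp reaching from 2000 bp upstream to 200 bp downstream of the start of the gene. Sperm of the vas deferens and epididymis came from 20 F1 males aged 8 weeks, with 4 groups of 5 males: controls and DEHP of the C57BL/6J strain, and controls and DEHP of the FVB/N strain. For the DEHP groups, mothers were given the phthalate DEHP (Bis(2-ethylhexyl)phthalate, a plasticizer) orally at 300 mg/kg/day in corn oil from day 9 to 19 of pregnancy, and mothers of the controls received corn oil alone over the same days. C57BL/6J and FVB/N are inbred mouse strains. How many mothers the 5 males of a group came from was not given in the sources used here, so littermates among them cannot be told apart from unrelated males. DEHP and control libraries were submitted to sequencing as separate batches with different read lengths, and treatment and submission therefore cannot be told apart.

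Fetal male germ cells lose nearly all DNA methylation and then regain it before birth. During that time piRNAs, small RNAs bound by the Piwi proteins, recognize transcripts of transposons, cut them and lead DNA methylation onto the transposon copies that are still active. Males that lack one of these genes generally stop making sperm. The promoters of many such germline genes are rich in CG sites and are kept silent by DNA methylation in somatic cells. In MBD-sequencing, fragments that carry methylated CG sites are captured by the methyl binding domain of a protein and sequenced, so a promoter gathers more reads when more of its CG sites are methylated and also when it holds more CG sites.

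Values below are the authors' mean and the authors' SD of normalized reads per promoter over 5 libraries, deposited with 1 decimal. The values behind these means, and so the depth per library, were not analysed here, and no test between groups was run. A change is given as the log2 ratio of means after adding 1 normalized read, with a standard error (SE) propagated from the SDs. The SE gives the uncertainty of the ratio of means over 5 libraries per group. It is smaller than the spread between libraries and is not a test. In a group of 5, every library must lie within 1.79 SD of the mean, so groups whose ranges of that width stay apart cannot overlap, whereas ranges that meet do not tell whether the libraries do.

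The probes of the 10 genes held 27 (Piwil4) to 71 (Ddx4) CG sites, with a median of 51 against 45 over all promoters. CG sites were concentrated close to the start of the gene. Between 500 bp upstream and 200 bp downstream lay 65.4% (Tdrd1) to 81.7% (Ddx4) of a probe's CG sites, a median of 70.2%, compared with 59.3% over all promoters, and all 10 genes were above that value. Each probe also overlapped 130 (Asz1) to 262 (Piwil2) bases of annotated exons of its own gene. The GC content was ordinary, with a median of 47.9% against 48%. Between C57BL/6J and FVB/N the authors listed 0 variants in the probes of Piwil1, Piwil2, Piwil4, Tdrd1 and Pld6, as for 53.9% of all promoters. The Tdrd9 promoter had 32 variants, a number that 1.95% of promoters reached, Ddx4 had 23, Mov10l1 and Mael had 6 each, and Asz1 had 5. Variants that change the protein were listed for Tdrd9 (10), Ddx4 (5) and Mov10l1 (4).

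**Figure D1:**
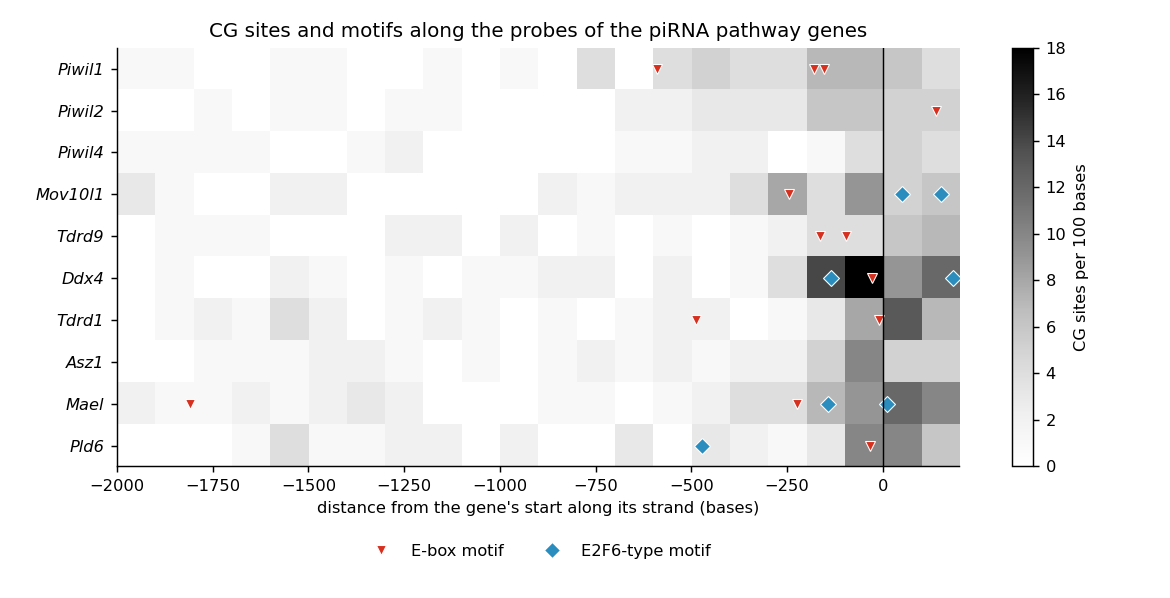
CG sites per 100 bases (grey scale, 0 to 18) along the 2200 bp probe of each gene, by distance in bases from the start of the gene along its strand. Triangles are E-box motifs and diamonds E2F6-type motifs. CG sites gather around the start in all 10 genes, most densely in Ddx4, and an E-box lies within 500 bp upstream to 200 bp downstream in 8 of 10.

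The E-box CACGTG, which holds a CG in its centre and is the site of the MAX and MGA proteins known to bind germline promoters, was searched on the reference sequence. The motif reads the same on both strands. Between 500 bp upstream and 200 bp downstream of the start it was found in 8 of 10 genes, all but Piwil4 and Asz1, against 13.4% of all promoters and 15.7% of the promoters with 27 to 71 CG sites. Among 17 other genes of the piRNA pathway, 4 had it there. The E2F6-type motif TCCCGC, searched on both strands, was in the same window in Mov10l1, Mael, Ddx4 and Pld6 and in 38.9% of all promoters, which is about the same share. Neither motif contains the other. These are matches of letters, and binding was not measured.

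The 250 bases before the start are shown for Tdrd1 and Tdrd9, the members with the highest and the lowest level, and for Mael and Asz1, which were picked after their values were seen to show a CG-rich and an E-box-free example. The sequences are those of RefSeq on GRCm38.p6, written 5′ to 3′ along the strand of the gene, with each CG and each whole E-box in capitals. They lie at chr19:56825959-56826208 on the plus strand (Tdrd1, 11 CG sites), chr12:111971309-111971558 on the plus strand (Tdrd9, 8 CG sites), chr1:166238745-166238994 on the minus strand (Mael, 18 CG sites) and chr6:18109062-18109311 on the minus strand (Asz1, 15 CG sites).
Tdrd1: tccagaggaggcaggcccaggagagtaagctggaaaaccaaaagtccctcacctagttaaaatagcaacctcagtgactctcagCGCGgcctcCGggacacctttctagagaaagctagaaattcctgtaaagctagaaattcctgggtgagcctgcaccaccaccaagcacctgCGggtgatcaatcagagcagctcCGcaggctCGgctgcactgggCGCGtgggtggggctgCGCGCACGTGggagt
Tdrd9: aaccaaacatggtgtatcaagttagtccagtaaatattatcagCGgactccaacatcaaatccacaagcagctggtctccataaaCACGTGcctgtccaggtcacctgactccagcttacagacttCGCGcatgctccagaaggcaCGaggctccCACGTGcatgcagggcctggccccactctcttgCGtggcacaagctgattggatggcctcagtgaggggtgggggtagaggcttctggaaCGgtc
Mael: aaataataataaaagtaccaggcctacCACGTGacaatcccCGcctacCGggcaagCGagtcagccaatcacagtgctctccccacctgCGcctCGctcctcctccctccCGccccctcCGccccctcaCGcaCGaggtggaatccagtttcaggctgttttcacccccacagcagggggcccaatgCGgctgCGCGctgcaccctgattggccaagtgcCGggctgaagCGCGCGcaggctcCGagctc
Asz1: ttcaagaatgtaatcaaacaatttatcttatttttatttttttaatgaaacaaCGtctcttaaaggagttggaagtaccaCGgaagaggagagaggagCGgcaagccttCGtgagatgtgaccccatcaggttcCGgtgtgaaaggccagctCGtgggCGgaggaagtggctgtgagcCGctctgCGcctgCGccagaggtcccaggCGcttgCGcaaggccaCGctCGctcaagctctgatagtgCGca
Tdrd1 carries an E-box 11 bases before its start, Tdrd9 has a pair of them at 165 and 95 bases, and Mael has 1 at 223 bases. Windows of 300 bases were found in RefSeq for 9 of the 10 genes, all but Piwil2, and held a median of 18 CG sites compared with 7 over 32851 windows.

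Averaged over the 4 groups, the levels ranged from 13.9 normalized reads in Tdrd1, above 85.2% of all promoters, down to 4.08 in Tdrd9, above 45.3%. The order was Tdrd1 (13.9), Pld6 (12.2), Mael (10.3), Mov10l1 (8.93), Ddx4 (8.13), Asz1 (6.88), Piwil1 (6.30), Piwil2 (5.45), Piwil4 (5.13) and Tdrd9 (4.08). All probes have the same length, so these levels are per equal length. Neighbours in this order differed by 0.325 to 1.90 normalized reads, and 0 of the 9 neighbouring pairs differed by more than 2 SE. Libraries of Tdrd1 and Pld6 could not overlap those of Piwil1, Piwil2 or Tdrd9 in FVB/N DEHP, and libraries of Tdrd1 could not overlap those of Piwil1 in C57BL/6J DEHP. For the other pairs of members the possible ranges met in every group, which does not tell whether the libraries did. Per CG site the order was partly different, with 0.267 normalized reads in Tdrd1, 0.239 in Pld6 and 0.19 in Piwil4 at the top and 0.114 in Ddx4 and 0.116 in Tdrd9 at the bottom.

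**Figure D2:**
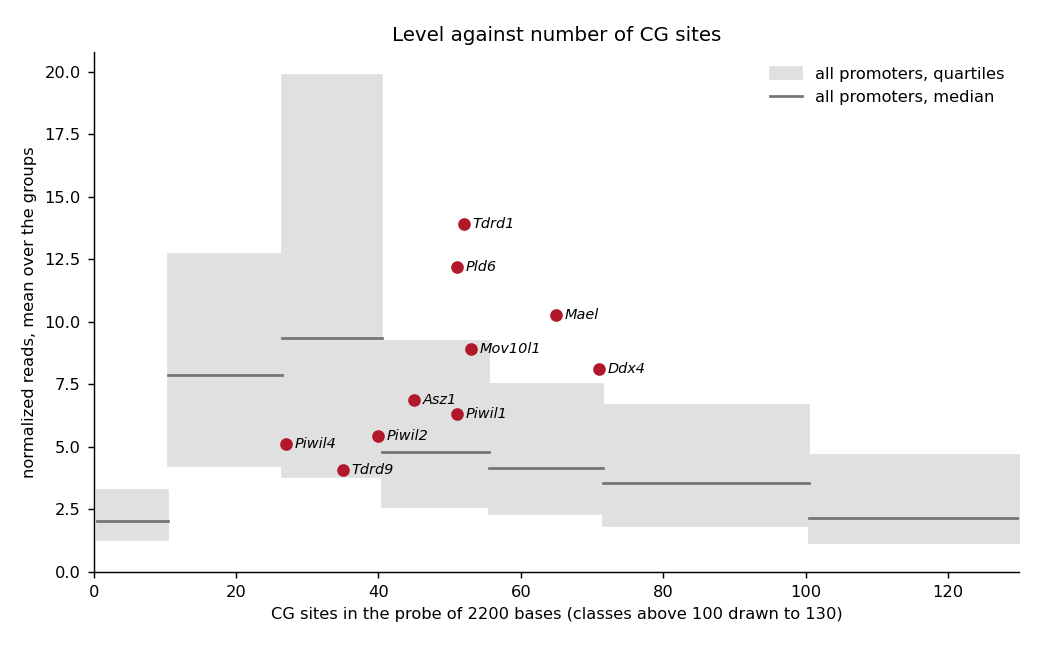
Mean normalized reads over the 4 groups against the number of CG sites in the probe. Red points are the 10 genes, grey bars the quartiles and lines the median of all promoters with that number of CG sites. Tdrd1, Pld6, Mael and Ddx4 lie above the upper quartile of promoters with similar numbers of CG sites, and Piwil2, Piwil4 and Tdrd9 lie below the median of theirs. Piwil2, with 40 CG sites, is at the edge of its class and lies above the median of the next one.

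The level of all promoters depended on the number of CG sites, from a median of 2.05 normalized reads at 1 to 10 CG sites to 9.35 at 27 to 40 and 2.18 above 100. Against promoters of like CG number the 10 genes lay on both sides. Tdrd1 and Pld6 exceeded the upper quartile of 9.22 normalized reads at 41 to 55 CG sites, and Mael and Ddx4 exceeded that of 7.50 at 56 to 71. Mov10l1, Asz1 and Piwil1 lay between the median of 4.80 and the upper quartile. Piwil2, Piwil4 and Tdrd9, all with 27 to 40 CG sites, lay below the median of 9.35. With 40 CG sites Piwil2 was at the edge of its class, and its 5.45 normalized reads were above the median of 4.80 in the next class.

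By group, the median of the 10 genes was 8.65 normalized reads without and 7 with DEHP in C57BL/6J, and 8.15 without and 7.15 with it in FVB/N. The medians of all promoters were 5, 5.3, 3 and 4.9 in the same order. FVB/N controls thus stood apart from the other groups by a low median over all promoters, and C57BL/6J controls by a high sum of 226268 normalized reads, against 141092 to 153283 in the other groups. In FVB/N controls 10 of 10 genes were above the median of all promoters, in C57BL/6J DEHP 9, and in the remaining groups 7. Because such shifts over all promoters touch each change given below, the change of each of the 10 genes is also given relative to the median change of all promoters. As a check of the label, the promoters of 2 paternal imprints were read, and H19 had 17.5 to 25.3 normalized reads and Meg3 5.2 to 25.8. Whether the region that carries the imprint in sperm lies inside these probes was not examined, so they are a weak check. Promoters of 10 maternal imprints, which sperm DNA lacks, had medians of 3.2 to 4.25, with 5 to 8 of 10 below the median of all promoters, although Nnat reached 9.5 to 26.5 and Inpp5f 3.9 to 15. Some markers moved with DEHP. Meg3 had 25.8 normalized reads without and 9.2 with DEHP in C57BL/6J. Its FVB/N values were 7 without and 5.2 with DEHP. The maternal imprint Snrpn had 0.5 without and 4 with DEHP in C57BL/6J, where its libraries could not overlap, whereas in FVB/N it had 1.1 and 4.4. Of the 10 maternal imprints, those past 2 SE with DEHP were Snrpn higher and Nnat and Inpp5f lower in C57BL/6J, and Snrpn and Peg3 higher and Inpp5f lower in FVB/N. The part of somatic DNA in the levels was not tested.

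**Figure D3:**
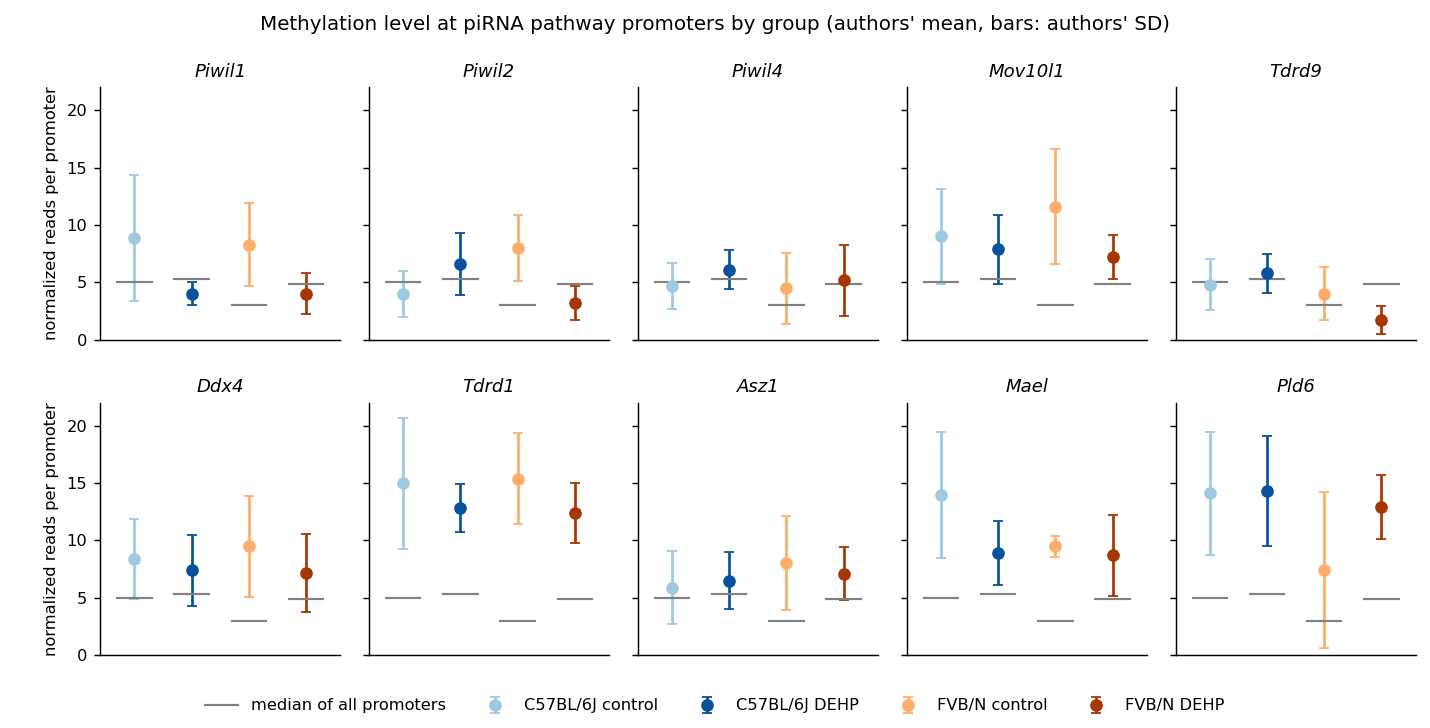
Normalized reads per promoter for each of the 10 genes in the 4 groups. Points are the authors' mean of 5 libraries, bars the authors' SD, and grey lines the median of all promoters in that group. Piwil2 and Tdrd9 are lowest in FVB/N DEHP, at 3.2 and 1.7, as are Mov10l1, Ddx4, Mael and Tdrd1. Piwil1 is equally low in both DEHP groups. Tdrd1 stays between 12.4 and 15.4.

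Piwil2 encodes a Piwi protein that binds piRNAs in fetal and later germ cells and slices transposon transcripts. Its probe lies at chr14:70428895-70431094 on the minus strand, holds 40 CG sites and overlaps 262 bases of annotated Piwil2 exons, all untranslated. Piwil2 had 4.0 ± 2.0 normalized reads (SD, n = 5) in C57BL/6J controls and 6.6 ± 2.7 in C57BL/6J DEHP. In FVB/N it had 8.0 ± 2.9 in controls and 3.2 ± 1.5 in DEHP. C57BL/6J was thus below FVB/N in controls and above it after DEHP, although the possible ranges of the libraries met in every comparison, for example 2.67 to 13.3 in FVB/N controls and 0.38 to 6.02 in FVB/N DEHP. The change with DEHP was 0.60 ± 0.35 (log2 ratio ± SE) in C57BL/6J, whereas it was -1.10 ± 0.31 in FVB/N. Relative to the median of all promoters they were 0.71 and -1.45. These changes differed by 1.70 ± 0.46, and 48 of all promoters (0.214%) had a difference at least as large in this direction. Piwil2 had already been seen to change in opposite directions when the genes were chosen, so this rank is a description only.

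Tdrd9 encodes a helicase that works with PIWIL4 in the nucleus and in granules of fetal germ cells. Its probe lies at chr12:111969559-111971758 on the plus strand and covers 200 bases of the first exon of Tdrd9. Tdrd9 had 4.8 ± 2.2 normalized reads (SD, n = 5) without and 5.8 ± 1.7 with DEHP in C57BL/6J, against 4.0 ± 2.3 without and 1.7 ± 1.2 with it in FVB/N. The mean in FVB/N DEHP was the lowest of all 10 genes in any group. After DEHP the log2 ratio of C57BL/6J over FVB/N was 1.33 ± 0.33, and 237 of all promoters (1.05%) reached that value. The change with DEHP was 0.23 ± 0.29 in C57BL/6J against -0.89 ± 0.41 in FVB/N, or 0.33 and -1.24 relative to the median of all promoters, so the direction was the same as in Piwil2. As deposited, the change in C57BL/6J was less than 2 SE from 0 in both genes. The difference between the changes was 1.12 ± 0.51 and was reached by 360 of all promoters (1.6%). The Tdrd9 promoter was listed with 32 variants between the strains, the most of the 10, and their part in the strain difference was not tested. Piwil2 has 0 such variants.

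Piwil1 encodes the Piwi protein of spermatocytes and round spermatids. Its probe, at chr5:128734246-128736445 on the plus strand, lies wholly inside the annotated gene, whose first transcript starts further upstream, and overlaps 670 bases of 4930553I04Rik on the other strand. Piwil1 had 8.9 ± 5.5 normalized reads (SD, n = 5) in C57BL/6J controls and 8.3 ± 3.6 in FVB/N controls, and 4.0 in DEHP of both strains, with SDs of 1.0 and 1.8. It was thus lower with DEHP in both strains by a like amount, with log2 ratios of -0.99 ± 0.38 and -0.90 ± 0.34. The difference between these changes was -0.09 ± 0.51, an SE too wide to show that they were equal. Relative to the median of all promoters the changes were -0.88 in C57BL/6J against -1.24 in FVB/N.

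Piwil4 encodes the nuclear Piwi protein that directs methylation to transposons in fetal germ cells. Its probe lies at chr9:14740534-14742733 on the minus strand and has the fewest CG sites of the 10, at 27. Piwil4 had 4.7 ± 2.0 normalized reads (SD, n = 5) without and 6.1 ± 1.7 with DEHP in C57BL/6J, against 4.5 ± 3.1 without and 5.2 ± 3.1 with it in FVB/N. These means lie within 1 SD of each other, and the log2 ratios with DEHP were 0.32 ± 0.27 in C57BL/6J against 0.17 ± 0.49 in FVB/N. They were 0.42 and -0.18 relative to the median of all promoters. With equal sums of the groups the ratio in C57BL/6J became 0.78 ± 0.26, and the median of all promoters became 0.33.

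Mov10l1 and Ddx4 encode RNA helicases, the former binding piRNA precursors and the latter, the mouse homolog of Vasa, marking germ cells throughout life. The Mov10l1 probe lies at chr15:88980994-88983193 on the plus strand. Mov10l1 had 9.0 ± 4.1 normalized reads (SD, n = 5) without and 7.9 ± 3.0 with DEHP in C57BL/6J, against 11.6 ± 5.0 without and 7.2 ± 1.9 with it in FVB/N. Its change in FVB/N was -0.62 ± 0.30, compared with -0.17 ± 0.34 in C57BL/6J, and the difference of 0.45 ± 0.45 was no larger than its SE. Relative to the median of all promoters the changes were -0.97 and -0.07 in these strains. The Ddx4 probe lies at chr13:112652111-112654310 on the minus strand. Ddx4 had 8.4 ± 3.5 normalized reads without and 7.4 ± 3.1 with DEHP in C57BL/6J, against 9.5 ± 4.4 without and 7.2 ± 3.4 with it in FVB/N, with changes of -0.16 ± 0.34 and -0.36 ± 0.38, or -0.06 and -0.71 relative to the median of all promoters. Despite the most CG sites of the 10, Ddx4 had the lowest level per CG site and stayed within its SDs across the groups.

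Tdrd1, a Tudor protein that binds PIWIL2 and gathers the pathway in granules between mitochondria, had the highest level of the 10 on average over the groups, although Pld6 was above it in both DEHP groups and the averages differed by 1.2 SE. Its probe lies at chr19:56824209-56826408 on the plus strand. Tdrd1 had 15 ± 5.7 normalized reads (SD, n = 5) without and 12.8 ± 2.1 with DEHP in C57BL/6J, against 15.4 ± 4.0 without and 12.4 ± 2.6 with it in FVB/N. As deposited, its highest mean was 1.24 times its lowest, the smallest ratio among the 10, against 3.41 in Tdrd9, the largest. Changes with DEHP were -0.21 ± 0.25 in C57BL/6J against -0.29 ± 0.20 in FVB/N. They were -0.11 and -0.64 relative to the median of all promoters, and with equal medians of the groups the change in FVB/N was -0.96 ± 0.20. In that setting the median of all promoters in FVB/N was -0.18.

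Asz1 and Pld6 encode proteins of the outer mitochondrial membrane, where Asz1 is a scaffold and Pld6 is the nuclease held to form the ends of piRNA intermediates. The Asz1 probe lies at chr6:18108862-18111061 on the minus strand and also covers 920 bases of Gm43845. Asz1 had 5.9 ± 3.2 normalized reads (SD, n = 5) without and 6.5 ± 2.5 with DEHP in C57BL/6J, against 8.0 ± 4.1 without and 7.1 ± 2.3 with it in FVB/N, with changes of 0.12 ± 0.37 and -0.15 ± 0.35, or 0.22 and -0.50 relative to the median of all promoters. The Pld6 probe lies at chr11:59787458-59789657 on the minus strand. Pld6 had 14.1 ± 5.4 normalized reads without and 14.3 ± 4.8 with DEHP in C57BL/6J, against 7.4 ± 6.8 without and 12.9 ± 2.8 with it in FVB/N. The SD in FVB/N controls was 91.9% of the mean, the widest of any member in any group, so the low mean of that group and the change of 0.73 ± 0.54 in FVB/N rest on libraries that differed much among themselves. The change in C57BL/6J was 0.02 ± 0.31, and relative to the median of all promoters the changes were 0.12 and 0.38.

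Mael encodes Maelstrom, a protein of germ cell granules needed for transposon silencing. Its probe lies at chr1:166238545-166240744 on the minus strand. Mael had 14 ± 5.5 normalized reads (SD, n = 5) without and 8.9 ± 2.8 with DEHP in C57BL/6J, against 9.5 ± 0.9 without and 8.7 ± 3.5 with it in FVB/N. As deposited, C57BL/6J controls had the highest mean, and their libraries could still overlap those of each other group. Its change with DEHP was -0.60 ± 0.30 in C57BL/6J against -0.11 ± 0.24 in FVB/N. Relative to the median of all promoters the changes were -0.50 and -0.46. With equal sums of the groups the change in C57BL/6J was -0.08 and the ratio of C57BL/6J over FVB/N controls turned from 0.51 to -0.11. The SD in FVB/N controls was 9.47% of the mean, the narrowest of any member in any group.

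**Figure D4:**
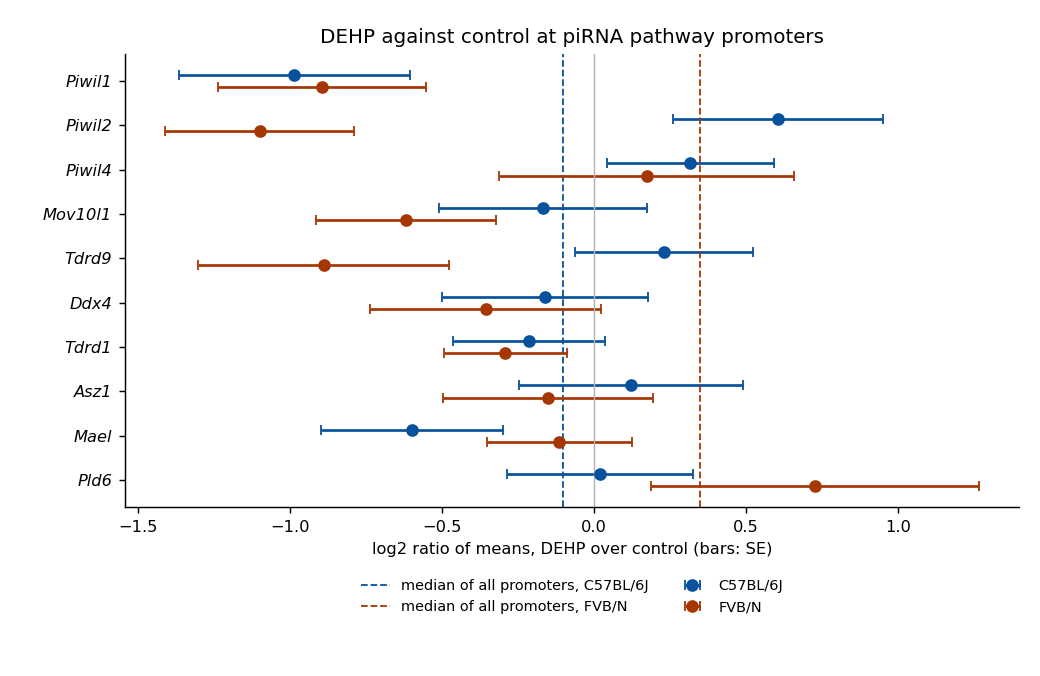
Log2 ratio of means (DEHP over control, 1 normalized read added) with SE for the 10 genes, in C57BL/6J (blue) and FVB/N (orange-brown). Dashed lines are the medians of all promoters, -0.10 and 0.35. In FVB/N 9 of 10 genes lie below the median of all promoters, and Piwil2, Tdrd9 and Asz1 lie on opposite sides of 0 in the strains.

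Taking the 10 genes as a list, promoters with DEHP compared with controls in C57BL/6J were lower by more than 2 SE in 2 genes, Piwil1 and Mael, against a background of 23.1% of all promoters, and higher in 0, against 10.3%. That is near the background. The median log2 ratio was -0.07, beside -0.10 over all promoters and -0.22 over the 10422 promoters with 27 to 71 CG sites, and it became 0.44 when the sums of the groups were made equal. With equal sums the 2 lower calls were lost, and Piwil2, Piwil4 and Tdrd9 were higher by more than 2 SE. The median of all promoters was 0.33 in that setting, and the share of all promoters called higher was not computed there. Relative to the median of all promoters, Piwil2 was higher and Piwil1 lower by more than 2 SE, against 13.3% and 19.3%. None of the 10 genes had DEHP and control libraries shown not to overlap, as was shown for 0.249% of promoters in which DEHP was above and 1.42% in which it was below.

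In FVB/N, 4 genes were lower with DEHP by more than 2 SE, Piwil1, Piwil2, Mov10l1 and Tdrd9, against a background of 7.22% of all promoters. Of the 10422 promoters with 27 to 71 CG sites, 1042 were lower and 1681 higher by more than 2 SE. Higher by more than 2 SE were 0 genes, against 19.9%. The median log2 ratio of the 10 genes was -0.32, whereas that of all promoters was 0.35 and that of promoters with 27 to 71 CG sites 0.26. Below the median of all promoters were 9 of 10 genes, the exception being Pld6. Relative to that median, 5 genes were lower by more than 2 SE, the same 4 and Tdrd1, against 14.3%, and 0 were higher, against 8.47%. Among the 10422 promoters with 27 to 71 CG sites, 1938 were lower in this way. The median SD in FVB/N controls was 44.85% of the mean for the 10 genes and 73.3% for those promoters. In FVB/N DEHP it was 42.6% and 38.8%. A narrower spread relative to the mean brings a ratio past 2 SE more easily. Divided by the square root of the mean, the median SD in FVB/N controls was 1.34 for the 10 genes and 1.38 for those promoters. Their median levels in that group were 8.15 and 3.7 normalized reads. The 4 calls held with another pseudocount, with a filter on low means and under both other scalings of the groups. With equal medians, 8 genes were lower and the median was -0.98. The median of all promoters was then -0.18, and the share of all promoters called lower was not computed in that setting. None of the genes was shown to have libraries that do not overlap, against 0.774% of promoters in which DEHP was above and 0.859% in which it was below.

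Controls of both strains were compared to see how the strains differed without exposure. Mael was higher in C57BL/6J than in FVB/N, with a log2 ratio of 0.51 ± 0.24, and Piwil2 was lower, with -0.85 ± 0.33. These are the 2 genes past 2 SE, against backgrounds of 25.4% of promoters higher and 1.03% lower. The study reported no significant difference between control strains for its strain-specific promoters, Piwil2 among them. Its threshold was corrected for the number of promoters, unlike the 2 SE used here. The ratio of Mael lay 0.02 below the median of all promoters and turned negative when sums (-0.11) or medians (-0.17) of the groups were made equal. The median of the 10 genes was 0.01 and that of all promoters 0.54, with 9 of 10 genes below it. Relative to that median 4 genes, Piwil2, Mov10l1, Tdrd1 and Asz1, were lower in C57BL/6J by more than 2 SE, against 6.69% of promoters. Shown not to overlap were 0 genes, against 1.06% of promoters with C57BL/6J above and 0.0267% with C57BL/6J below.

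After DEHP, Piwil2 (0.86 ± 0.33) and Tdrd9 (1.33 ± 0.33) were higher in C57BL/6J than in FVB/N by more than 2 SE, against 8.3% of promoters, and 0 genes were lower, against 3.5%. The remaining 8 genes had log2 ratios between -0.11 (Asz1) and 0.20 (Piwil4), each less than its SE. The median was 0.08, beside 0.04 over all promoters, and -0.02 with equal medians of the groups. Both treated groups were in the same submission, so submission does not differ in this comparison. The calls of Piwil2 and Tdrd9 held under every scaling, with log2 ratios of 0.75 to 0.86 and 1.21 to 1.34. Again 0 genes were shown not to overlap, against 0.307% of promoters with C57BL/6J above and 0.0311% with C57BL/6J below.

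**Figure D5:**
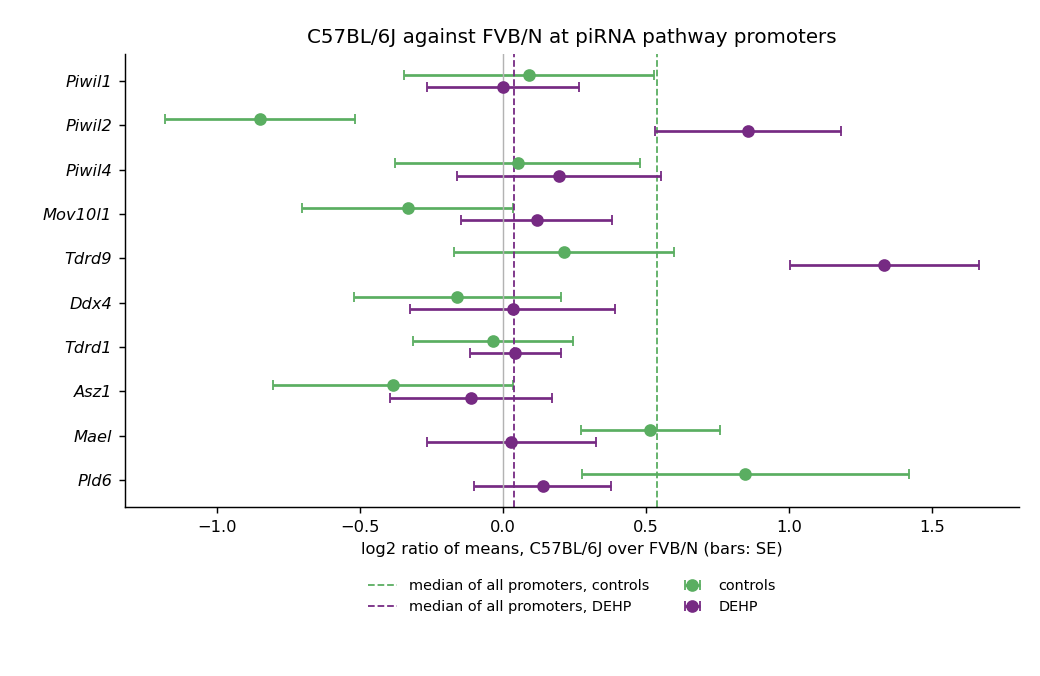
Log2 ratio of means (C57BL/6J over FVB/N, 1 normalized read added) with SE for the 10 genes, in controls (green) and after DEHP (purple). Dashed lines are the medians of all promoters, 0.54 and 0.04. Piwil2 lies below 0 in controls and above 0 after DEHP, and Tdrd9 is the highest after DEHP at 1.33. Mael in controls lies above 0 here and below 0 when the groups are scaled to equal sums or medians.

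The change in C57BL/6J less the change in FVB/N addresses whether DEHP acted on a promoter differently in the strains, the question of the study's strain-specific regions. It was above 0 by more than 2 SE in 2 of the 10 genes, Piwil2 and Tdrd9, against a background of 1.21% of promoters, and below 0 in none, against 15.4%. Piwil2 is among the strain-specific promoters that the study reported from these same libraries, and this was known when the genes were chosen. Its place in this count is therefore not independent support. The medians were 0.17 for the 10 genes and -0.50 for all promoters, and 9 of 10 genes were above that of all promoters. The FVB/N controls enter this difference, the change in FVB/N and the strain difference in controls. In that group the median was 8.15 for the 10 genes and 3 for all promoters. The shifts of the 10 genes in these comparisons are therefore not separate results. Relative to the median of all promoters Mov10l1 was past 2 SE as well, against a background of 5.22%. Means were higher with DEHP in C57BL/6J and lower in FVB/N in Piwil2, Tdrd9 and Asz1, lower in both strains in 5 genes and higher in both in Piwil4 and Pld6. Signs near 0 turn with the scaling: with equal sums Mov10l1, Tdrd1 and Ddx4 were above 0 in C57BL/6J, and with equal medians Pld6 was below 0 in C57BL/6J and Piwil4 in FVB/N. Of 22480 promoters, 0 were shown to have libraries that do not overlap in opposite directions in the strains.

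Other genes of the pathway were taken as a list of 19, of which 17 had a row under these symbols. It holds Tudor proteins, further piRNA factors such as Rnf17, Gtsf1, Fkbp6, Exd1, Pnldc1 and Henmt1, the regulators Mybl1 and Btbd18, and the methylation factors Morc1, Tex15 and Dnmt3l. In C57BL/6J, DEHP was lower by more than 2 SE in 6 of 17, against 23.1% of all promoters, and higher in 0, against 10.3%. The median was -0.58, and the lowest ratio was that of Tdrd7 at -0.98 ± 0.26. Relative to the median of all promoters 4 of 17 were lower, against 19.3%, and with equal sums the median was -0.07 and the 6 calls were lost. In FVB/N, 6 of 17 were lower, against 7.22%, and 0 higher, against 19.9%, with a median of -0.10 and the lowest ratio in Stk31 at -1.32 ± 0.38. Relative to the median of all promoters 6 were lower as well, against 14.3%, and 16 of the 17 lay below that median. Between the strains, Exd1 differed most both in controls (1.25 ± 0.47) and after DEHP (0.97 ± 0.31), with C57BL/6J higher. With equal sums or equal medians its ratio in controls was no longer past 2 SE, whereas that after DEHP still was. Past 2 SE between the controls were 3 of 17, all higher in C57BL/6J, against 25.4%, and after DEHP 2, also higher, against 8.3%. For the difference between the changes, 1 gene, Btbd18, was above 0 by more than 2 SE, against 1.21% of all promoters, and 1, Tdrd7 with -1.29 ± 0.47, was below 0, against 15.4%. Tdrd7 was not past 2 SE relative to the median of all promoters, nor was it with equal sums or equal medians. Libraries shown not to overlap were found in 0 of the 17 in each comparison, which is near the background of 0.0267% to 1.42% of all promoters.

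Expression values that the authors added from an independent dataset of testicular cell populations, on a scale that is not stated, placed 8 of the 10 genes highest in spermatocytes, against 8 of 16 other piRNA pathway genes and 21.4% of 17133 genes with values. Piwil4 and Asz1 were highest in spermatogonia. All 10 were lowest in Sertoli cells, the somatic cells of the tubule, against 15 of 16 and 25.5%. For Piwil4 the 4 values were nearly equal, from 3.19 to 3.64, so its order carries little. In Mael the values ran from 3.89 in Sertoli cells to 13.2 in spermatocytes. These values do not come from the sperm measured here.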

How the data were processed

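MBD-sequencing libraries of sperm DNA from 20 males were grouped by strain and treatment from their labels, 5 per group. Read-pairs were mapped by the authors to mm10 (Bowtie 0.12.7), counted over each promoter and normalized (edgeR). The authors deposited this signal as a group mean and SD of normalized reads, rounded to 1 decimal, for 22480 promoters. CG sites, variants between the strains and expression values are the authors' annotations as deposited. The table also holds the authors' fold changes, p-values and FDR, which were not used. Single libraries were not analysed here, so the depth per library and its precision are unknown (the study's methods give an average per treatment), and the count test planned for single libraries was replaced by the measure planned for group means, which is no test.

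The 10 genes were taken by symbol, and all 10 are named. Of 17 other piRNA pathway genes, those with the largest absolute log2 ratio in each comparison are named with values. Btbd18 falls outside this rule and is named because it was called above 0 for the difference between the changes. The members and lists were chosen with earlier results of these data known, and Piwil2 had already been seen to change in opposite directions. Log2 ratios of means used a pseudocount of 1, which understates changes at low levels, and SEs were propagated from the SDs with 5 libraries per group. A call is a ratio more than 2 SE from 0. Libraries were counted as not overlapping where means plus and minus 1.79 SD, widened by 0.05 for rounding, stayed apart. Of all group values, 194 have an SD above 2 means and 0 above the limit for a divisor of n - 1, which places the divisor. The computations were tested on simulated data. Motifs and CG sites were read from GRCm38.p6, in which 93.2% of probes (10 of the 10 genes) have the deposited number of CG sites, exons from its GENCODE annotation, and promoter sequences from RefSeq. Alternatives were a pseudocount of 0.1, a filter on means of at least 1, equal sums or equal medians of the groups, a bound of 2 SD, and, for opposite changes, both changes more than 1 SE from the median of all promoters. Computations ran in Python 3.11.15 (numpy 2.4.6, pandas 2.3.3, matplotlib 3.10.9).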

Additional observations from a re-analysis of the deposited data

How the results depend on the processing

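The scaling between the groups was the choice that moved results. With equal sums, members past 2 SE with DEHP in C57BL/6J were 3 higher and 0 lower in place of 0 and 2. With equal medians, members lower in FVB/N were 8 in place of 4, and their median log2 ratio was -0.98 in place of -0.32. Between the controls, equal sums and equal medians gave medians of -0.59 and -0.66 in place of 0.01, and both gave 0 members higher and 5 lower in place of 1 and 1. The strain difference of Mael in controls turned from 0.51 to -0.11 with equal sums and -0.17 with equal medians. For the difference between the changes, both scalings gave 4 members higher in place of 2. The share of all promoters called under the same scaling was not computed, so the backgrounds above do not apply to these counts. The medians of all promoters also moved with equal sums, from -0.10 to 0.33 in C57BL/6J and from 0.54 to 0.00072 between the controls, and with equal medians from 0.35 to -0.18 in FVB/N. The calls of Piwil2 and Tdrd9 in FVB/N, between the strains after DEHP and in the difference between the changes held in all these settings, as did Piwil1 and Mov10l1 in FVB/N and Piwil2 between the controls. Members with opposite changes in the strains were 2 in place of 3 when both changes had to lie more than 1 SE from the median of all promoters. A pseudocount of 0.1, the filter on means and the bound of 2 SD changed no count of members by more than 1.5 times. No paired analysis was possible because the labels carry library numbers that do not match across groups and the files hold group means. Leaving out single libraries was not run, since group means and SDs do not allow it. The unknown depth leaves counting error and spread between animals together in the SD.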

Other observations

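The promoters whose means over the 4 groups were nearest to those of Piwil2, by Euclidean distance in log2(mean + 1), were Atxn1l (distance 0.29), Myog (0.30) and Tmprss12 (0.50), and these 3 were the promoters within a distance of 0.5. Atxn1l had 4.8 ± 2.5 normalized reads (authors' SD, n = 5) without and 6.0 ± 2.2 with DEHP in C57BL/6J, against 9.0 ± 4.0 without and 3.3 ± 1.7 with it in FVB/N. Myog, a regulator of muscle differentiation, had 7.5 ± 8.0 in FVB/N controls, where the SD exceeded the mean, and 3.8 ± 1.5 in FVB/N DEHP. Likeness over 4 group means is a description of these values.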
